A study of Mus musculus with 2 samples.

Results

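The Toll-like receptors described here are the 10 mouse genes Tlr1 to Tlr9 and Tlr13, taken as every probe set of the deposited table whose only platform gene symbol was 1 of these names. A probe set is a group of short array probes that reads 1 transcript or a few related ones. The rule found 16 probe sets for the 10 genes, out of 45037 probe sets and 18193 genes in the table. The genes were chosen by name and not by their values. Both arrays held RNA of peritoneal macrophages from male C57BL/6 mice, taken 48 h after transfection. The control group was transfected with a control siRNA (1 array) and the other group with HDAC9 siRNA (1 array), which targets a histone deacetylase of class IIa, so that expression with and without its knockdown could be compared. The age of the mice, the number of mice behind each array and any stimulation of the cells are not stated in the sources used here.

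Toll-like receptors are membrane proteins of innate immune cells that bind parts of microbes and signal through a cytoplasmic TIR domain. One set sits mainly at the cell surface and binds bacterial lipids and proteins, and the other sits in endosomes and binds nucleic acids. Ligand binding recruits the adaptors MyD88 or TRIF, which lead to NF-kappaB and interferon regulatory factors and so to cytokines and type I interferon. Macrophages are among the cells that use most members of the family.

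Each group had 1 array, so no spread between samples, test or p-value could be had, and what follows describes how 2 arrays differ. Signals are the deposited log2 values. A signal was called above background when it exceeded log2 6.34, the 95th percentile of 80 probe sets that read olfactory or vomeronasal receptor genes, which sensory neurons use. Ratios are log2 HDAC9 siRNA over control siRNA after lower signals were raised to that floor. A ratio with 1 signal under the floor is a bound. The only measure of scatter in these data used the 5671 genes that had more than 1 probe set above the floor, in which single probe sets scattered by 0.29 log2 units. This yardstick mixes probe noise with differences between transcripts and leaves out differences between cultures. The siRNA target was itself near background: Hdac9 probe set 1434572_at read 6.88 with control siRNA and 5.69, below the floor, with HDAC9 siRNA, a bound of at least 1.46-fold lower. Its other probe set, 1421306_a_at, was below the floor on both arrays.

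All 10 receptor genes exceeded background on 1 array or both, and 9 of them on both. Ranked by mean signal, the brightest probe set was that of Tlr13, the endosomal receptor for bacterial ribosomal RNA that mice have and humans lack. Its probe set 1457753_at read 12.09 with control siRNA and 12.05 with HDAC9 siRNA, and pairs of signals below keep this order. The next 2 places belonged to Tlr4, the lipopolysaccharide receptor, with 1418162_at at 11.35 and 11.24 and 1418163_at at 11.13 and 10.82. Tlr7, the endosomal receptor for single-stranded RNA, followed at rank 4 through 1422010_at, at 10.80 and 10.32. Tlr2, which binds bacterial lipopeptides as a partner of Tlr1 or Tlr6, read 10.29 on both arrays (1419132_at). Tlr1, its partner for triacylated lipopeptides, read 10.25 and 10.02 (1449049_at).

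A middle group lay between log2 8 and 9. It held Tlr8 (1450267_at, 8.74 and 8.75), a receptor for RNA breakdown products in humans that responds poorly to the same ligands in mice, and Tlr6 (1421352_at, 8.33 and 8.32), the partner of Tlr2 for diacylated lipopeptides. Tlr3, the receptor for double-stranded RNA, was read there by 1422782_s_at at 8.58 and 8.82 and by 1422781_at at 8.09 and 8.08. Another Tlr4 probe set, 1442827_at, read 8.51 and 8.71. The order within this group is not firm, since Tlr8 and Tlr3 changed places between the arrays.

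The dimmest genes were Tlr5, the flagellin receptor, and Tlr9, the endosomal receptor for unmethylated CpG DNA. By 1450242_at, Tlr5 read 6.50 with control siRNA and 7.07 with HDAC9 siRNA, above the floor on both but within 1 log2 unit of it. By 1422083_at, Tlr9 read 5.88, below the floor, with control siRNA and 7.10 with HDAC9 siRNA. The last Tlr4 probe set, 1430695_at, lay below the floor on both arrays, at 4.54 and 4.35. Of the 16 probe sets, 11 held the same rank on both arrays. Probe sets bind their targets with different strength, so this is an order of signals and not of transcript numbers, as the spread of Tlr4 from rank 2 to rank 16 shows within 1 gene.

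**Figure D1:**
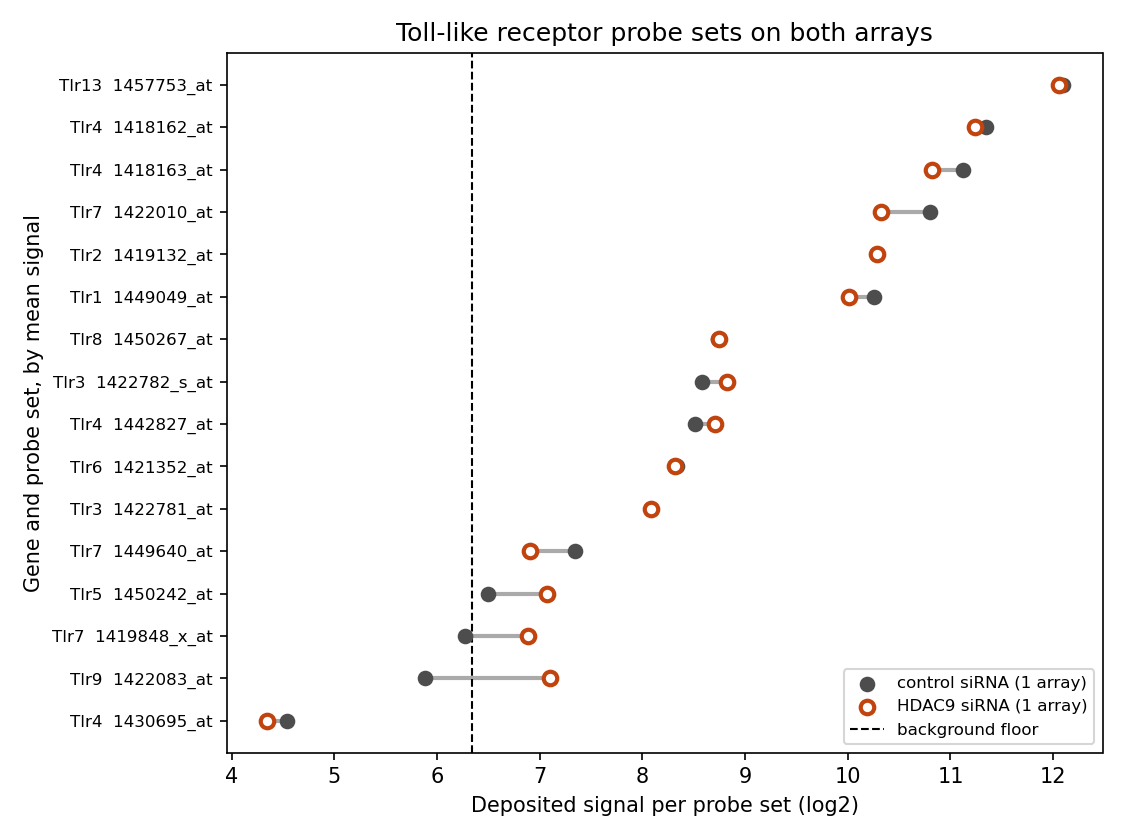
Deposited log2 signal (horizontal axis) of each Toll-like receptor probe set (vertical axis, ordered by mean signal) on the control array (filled grey) and the HDAC9 siRNA array (open orange), with the background floor at 6.34 as a dashed line. The pairs of Tlr2, Tlr6, Tlr8 and Tlr13 nearly coincide, and the widest gap is that of Tlr9, from 5.88 to 7.10 across the floor.

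The ratios of the family centred on 0. Counting each gene by its brightest probe set, 5 genes had a ratio above 0 and 5 below, and the median ratio was -0.0047. Over all 12050 genes above background the median was 0.03, with 54.0% of ratios above 0. None of the 10 receptors was at least 2-fold higher or lower, where 1.41% of all genes were at least 2-fold higher and 0.365% at least 2-fold lower. At 1.5-fold, 1 receptor was higher (Tlr9) and 0 lower, against 7.75% and 2.75% of all genes. With so few members and such backgrounds, the counts do not set the family apart from other genes.

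For 7 of the 10 genes the ratio lay inside the 0.29 scatter of single probe sets, as it was for 65.7% of all genes. Among them, 4 were within 0.1 log2 units of 0: Tlr2, Tlr6, Tlr8 and Tlr13, whose ratios were 0.0031, -0.013, 0.015 and -0.040. Ratios this small have no firm sign. Tlr2 and Tlr8 turned to -0.02 and -0.04 after quantile normalization, and Tlr13 turned to 0.01. Tlr1 (-0.24), Tlr4 (-0.11) and Tlr3 (0.24) were also inside the scatter. When _s_at probe sets, which may read more than 1 transcript, were left out, Tlr3 was represented by 1422781_at and its ratio was -0.0048.

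The 3 genes outside the scatter were Tlr7, Tlr5 and Tlr9. Tlr7 was 1.39-fold lower on the HDAC9 siRNA array by its brightest probe set (10.80 and 10.32, ratio -0.48). Its second probe set, 1449640_at, read 7.34 and 6.90 and gave a similar ratio of -0.44. The third, 1419848_x_at, pointed the other way, from 6.27, just under the floor, to 6.89, a bound of at least 1.46-fold higher. The ending _x_at marks probes that may bind other transcripts, and this probe set was the dimmest of the 3. The ratio of the gene lay between -0.44 and -0.49 under each scaling, floor and probe-set rule tried. Over all genes above background, 543 (4.51%) had a ratio as low or lower.

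Tlr5 was 1.48-fold higher (6.50 and 7.07, ratio 0.57), and Tlr9 at least 1.70-fold higher (5.88 and 7.10, a bound of 0.77). Both were read by a single probe set and both were near background. The deposited Tlr9 signals, with no floor, differed by 1.22. With a stricter floor, at the 99th percentile, Tlr5 became a bound of 0.14 and Tlr9 a bound of 0.18. Dim genes were spread widely and tended upward on these arrays. All genes were placed in 4 bins of equal size by mean signal. In bin 1, the dimmest, the median ratio was 0.15 and the 5th and 95th percentiles were -0.64 and 0.88, with the floor applied to all genes. That range contains the Tlr5 ratio and the Tlr9 bound. Whether the Tlr9 ratio itself lies inside is not known, and its deposited difference of 1.22 is above the range. In bin 3, which holds Tlr7, Tlr1 and Tlr2, the range was -0.38 to 0.55, and Tlr7 lay below it.

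**Figure D2:**
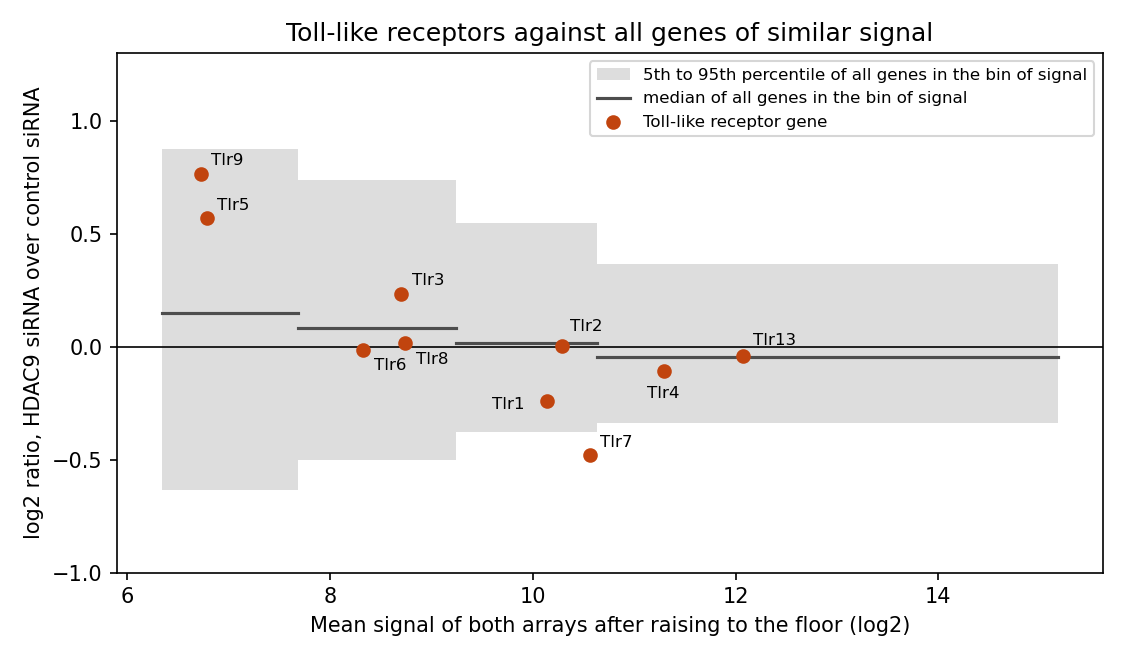
Log2 ratio of each Toll-like receptor gene (orange) against its mean signal in log2 after raising to the floor, over the 5th to 95th percentile band (grey) and median (line) of all genes in each of 4 equal bins of signal. The Tlr5 ratio and the Tlr9 value, which is a bound, sit inside the wide band of dim genes, and Tlr7, at -0.48, lies under the lower edge of its bin, -0.38.

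Surface and endosomal receptors did not separate. The 5 surface genes (Tlr1, Tlr2, Tlr4, Tlr5 and Tlr6) had a median of -0.013 and a range from -0.24 to 0.57. The 5 endosomal genes (Tlr3, Tlr7, Tlr8, Tlr9 and Tlr13) had a median of 0.015 and a range from -0.48 to 0.77. The first range lay inside the second. Tlr7 and Tlr8, neighbouring coding genes on chromosome X in the RefSeq annotation, had ratios of -0.48 and 0.01. Tlr1 and Tlr6, neighbours on chromosome 5, had -0.24 and -0.01, both within the 0.29 scatter. Tlr4 shows how far probe sets of 1 gene can part, with ratios of -0.11, -0.30 and 0.20 for the 3 that were above background.

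**Figure D3:**
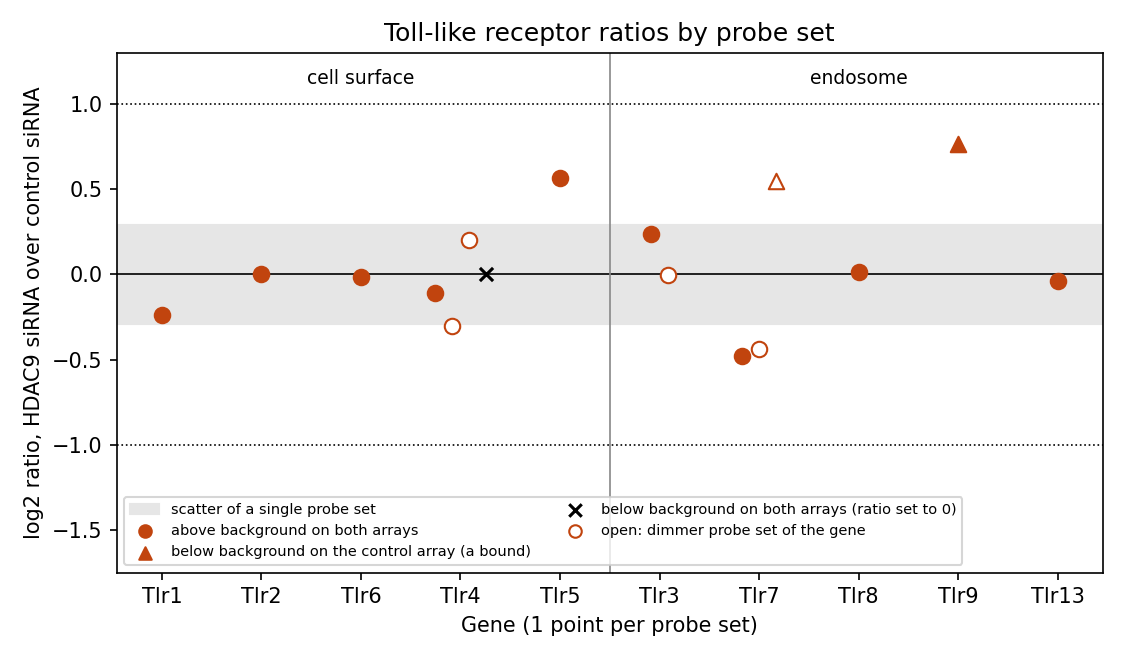
Log2 ratio between HDAC9 and control siRNA (vertical axis) for each probe set of each receptor gene (horizontal axis), with surface receptors on the left and endosomal ones on the right. The grey band is the single-probe-set scatter of 0.29 and dotted lines mark 2-fold; with the floor applied no probe set reaches 2-fold, and the probe sets of Tlr7 fall on both sides of 0.

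Upstream sequence was available for 8 of the 10 genes in the RefSeq promoter table of build GRCm38.p6, in 10 windows, since Tlr1 and Tlr6 have 2 start sites each in it. Tlr4 and Tlr7 had no entry. The 250 bases before each start were searched on both strands for 4 motifs of factors that act in macrophage gene control. The interferon-stimulated response element (GAAANNGAAA) is bound by interferon regulatory factors and was in 2.98% of all 32851 windows. The kappaB motif is bound by NF-kappaB and was in 3.9%. The AP-1 motif (TGANTCA) was in 6.75%, and a motif of the PU.1 type (GAGGAAG) in 10.6%. The windows below are shown because they hold the matches that bear on the response pathway of these receptors. Tlr2 and Tlr3 hold kappaB, Tlr6 holds 2 overlapping response elements, and Tlr9, the gene with the largest ratio, holds AP-1 and the PU.1-type motif. Ifit1, an interferon-stimulated gene outside the family that was 1.40 log2 units higher on the HDAC9 siRNA array, is shown for comparison. Capitals mark the matched bases. Read 5′ to 3′ along the gene, response elements appear as their reverse complement.
Tlr2 (chr3:83841609-83841858, minus strand): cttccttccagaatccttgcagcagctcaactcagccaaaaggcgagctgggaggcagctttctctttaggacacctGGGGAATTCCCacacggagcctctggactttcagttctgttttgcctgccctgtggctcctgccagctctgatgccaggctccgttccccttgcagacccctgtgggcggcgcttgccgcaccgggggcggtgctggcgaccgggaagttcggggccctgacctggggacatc
Tlr3 (chr8:45410381-45410630, minus strand): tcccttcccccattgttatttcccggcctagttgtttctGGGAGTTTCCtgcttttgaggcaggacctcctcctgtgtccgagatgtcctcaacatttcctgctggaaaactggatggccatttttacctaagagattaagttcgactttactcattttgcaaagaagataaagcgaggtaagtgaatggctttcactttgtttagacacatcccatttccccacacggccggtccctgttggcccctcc
Tlr6 (chr5:64959167-64959416, minus strand): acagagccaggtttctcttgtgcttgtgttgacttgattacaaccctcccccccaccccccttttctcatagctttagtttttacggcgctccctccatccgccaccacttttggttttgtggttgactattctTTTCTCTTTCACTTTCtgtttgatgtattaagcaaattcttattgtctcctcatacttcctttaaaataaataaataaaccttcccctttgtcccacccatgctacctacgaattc
Tlr9 (chr9:106222348-106222597, plus strand): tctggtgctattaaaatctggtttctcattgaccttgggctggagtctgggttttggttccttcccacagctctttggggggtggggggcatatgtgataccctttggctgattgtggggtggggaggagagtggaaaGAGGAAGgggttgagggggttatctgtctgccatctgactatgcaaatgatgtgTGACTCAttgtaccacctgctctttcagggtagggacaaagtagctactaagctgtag
Ifit1 (chr19:34640639-34640888, plus strand): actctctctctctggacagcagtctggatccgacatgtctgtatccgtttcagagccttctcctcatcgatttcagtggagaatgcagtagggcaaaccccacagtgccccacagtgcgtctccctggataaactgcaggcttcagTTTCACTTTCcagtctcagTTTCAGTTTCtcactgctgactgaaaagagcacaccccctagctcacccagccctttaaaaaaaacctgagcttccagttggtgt

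The stretch TTTCACTTTC stood in both the Tlr6 and the Ifit1 windows, 110 to 101 bases before the Tlr6 start and 104 to 95 before that of Ifit1. The signals of the genes differed: Tlr6 read 8.33 and 8.32 and Ifit1 9.81 and 11.21. The other Tlr6 start site, the windows of Tlr1, Tlr5, Tlr8 and Tlr13 and those printed for Tlr2, Tlr3 and Tlr9 held no response element of these letters. The PU.1-type motif was also found before Tlr1 and Tlr13. A match describes letters in a window and is not a binding site.

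The interferon-stimulated genes measured on the same arrays give the contrast in size. Of 24 such genes, chosen with earlier results of these data known, 20 were measured and above background. Of these, 20 of 20 had a ratio above 0, against 54.0% of all genes. Their median was 0.69, and 6 were at least 2-fold higher (background 1.41%). Mx2 is among the 6 as a bound, from a control signal of 4.08, below the floor. Eif2ak2 was at 0.83, but its other probe sets gave 0.02 and -0.13. The lowest ratio of the list was 0.23 (Irf9) and the highest 1.55 (Cxcl10, a chemokine). Tlr3, whose transcript is known to be interferon-inducible in mouse macrophages, was at 0.24 by 1422782_s_at, near the low end of that range. That ratio was within the scatter of single probe sets. The other Tlr3 probe set, 1422781_at, gave -0.0048, below the range. Among the receptors, by brightest probe set, only Tlr5 and Tlr9 had larger ratios than Tlr3, and their limits are given above.

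Co-receptors and accessory proteins that help the surface receptors bind ligand had 5 of 6 ratios below 0, where 46.0% of all genes did, and 0 past 2-fold. Their median was -0.21. Medians of all genes were -0.045 in bin 4, the brightest, which holds Cd14, Cd36 and Ly86. They were 0.017 in bin 3, which holds Ly96 and Cd180, and 0.083 in bin 2, which holds Lbp. Cd14, which hands lipopolysaccharide to the Tlr4 complex, read 12.86 and 12.40 (ratio -0.46). Ly96, which encodes the MD-2 subunit that holds lipopolysaccharide on Tlr4, read 10.70 and 10.48 (-0.21). Cd36, a scavenger receptor that assists Tlr2 and Tlr6, was at -0.26 by its brightest probe set and at -0.37 and -0.43 by the other two. Cd180, a Tlr4-like receptor without a TIR domain, and its partner Ly86 were at -0.03 and -0.20, and Lbp, the serum protein that carries lipopolysaccharide to Cd14, was at 0.10. All but Cd14 were within the 0.29 scatter by their brightest probe set.

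The machinery that carries and matures the endosomal receptors differed little. Of 7 chaperone and trafficking genes, 6 were below 0, against 46.0% of all genes, and none was past 2-fold. Their median was -0.03. All but Cnpy3 were in bin 4, the brightest, where the median of all genes was itself -0.045. Unc93b1, which escorts the nucleic acid receptors from the endoplasmic reticulum to endosomes, read 11.43 and 11.36. Hsp90b1 (gp96) and Cnpy3, which fold most members of the family, were at -0.02 and -0.01, Cnpy4 at -0.24, Tmed7 at -0.06, Ap3b1 at -0.03 and Slc15a4, an endolysosomal transporter needed for Tlr7 and Tlr9 signalling, at 0.10. The 5 proteases that cut endosomal receptors into their active form had ratios from -0.16 (Ctsl) to 0.02 (Ctss and Lgmn), with Ctsb at -0.08 and Ctsk at -0.04. Their median of -0.04 turned to 0.02 after loess.

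Downstream of the receptors, the adaptor Myd88 read 11.41 on both arrays. Of 6 adaptors 5 were measured, with a median of 0.09: Tirap, which bridges Tlr2 and Tlr4 to MyD88, at 0.09, Ticam1 (TRIF), the adaptor of Tlr3 and of endosomal Tlr4, at 0.21, Pik3ap1 at 0.24 and Sarm1 at -0.16 as a bound. Of 14 proximal kinases and ubiquitin enzymes 11 were measured, 6 above and 5 below 0 (54.0% of all genes above 0) and none past 2-fold. The largest was Irak1, a kinase recruited by MyD88, at 0.81 by 1438120_x_at, but its other 3 probe sets gave 0.14, 0.23 and 0.18. Map3k7 (TAK1), the kinase that activates the IKK complex, was at 0.57 by its brightest probe set and between -0.38 and 0.08 by the other 4 above background. Peli2 was at 0.55 by its representative probe set and at -0.34 and 0.07 by the others, and Peli1, another ubiquitin ligase of the pathway, was at -0.39. The median of the list, 0.14, turned to -0.06 when genes were given the median of their probe sets and to -0.04 without _s_at, _x_at and _a_at probe sets.

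The IKK and IKK-related kinases and their partners had 5 of 6 measured genes below 0, against 46.0% of all genes. Their median was -0.25, with none past 2-fold. Medians of all genes were -0.045 in bin 4, which holds Ikbkb, Tbk1 and Tank, and 0.017 in bin 3, which holds Ikbkg, Ikbke and Map3k8. Tank, a scaffold of the related kinases, was at -0.77 by 1421640_a_at and at 0.59 by its dimmer probe set 1441513_at. Map3k8 (TPL-2), a kinase that links the receptors to ERK, was at -0.38, Ikbke at -0.26, Ikbkg at -0.23, Ikbkb at -0.18 and Tbk1 at 0.01. The other probe sets of Ikbkg ranged from -0.57 to 0.64 and those of Ikbkb from -0.47 to 0.34, the last a bound. Of 9 downstream transcription factors 8 were measured, 6 above and 2 below 0, where 54.0% of all genes were above 0. Irf7, which drives interferon genes below the endosomal receptors and is itself interferon-stimulated, was the 1 gene past 2-fold, at 10.47 and 11.83 (1.36). Nfkb2 was at 0.54 and at -0.30 by its other probe set, Rel at 0.46 and Rela at 0.31. The list's median of 0.20 was 0.07 with the median of probe sets and 0.01 without _s_at, _x_at and _a_at probe sets.

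Inhibitors of the pathway were level between the arrays, with 8 of 9 measured genes above background, none past 2-fold and a median of 0.0043. Tnfaip3 (A20), which removes ubiquitin chains, was at 0.01, the decoy kinase Irak3 at -0.16, Tollip at -0.23 and Nfkbia, the inhibitor of NF-kappaB, at 0.18, with its other 4 probe sets between -0.08 and 0.33. Sigirr was at -0.20 as a bound, and Socs1 was below background on both arrays.

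**Figure D4:**
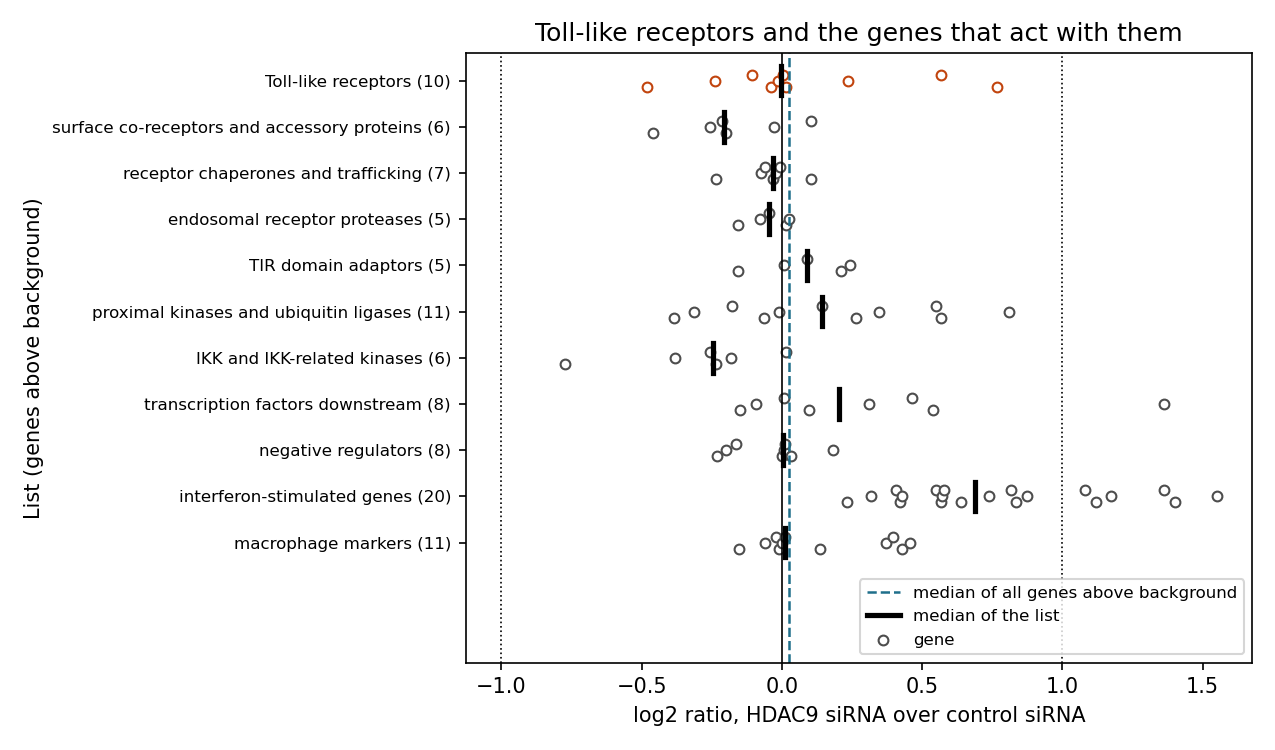
Log2 ratio between HDAC9 and control siRNA (horizontal axis) for each gene above background (points) in the receptor family and in lists of genes that act with it (vertical axis, number of genes in brackets), with list medians as bars and the all-gene median of 0.03 dashed. The receptors spread around 0, and the interferon-stimulated genes lie between 0.23 and 1.55.

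Markers of the labelled cell type were present and level as a list, with 11 of 12 genes above background. Their median was 0.01, and their summed signal was log2 16.4 on both arrays. Summed signals, here and below, add the deposited linear signals of all measured genes of a list. No floor was applied to them, so genes below background enter as well. Adgre1, which encodes F4/80, read 12.7 on both arrays. Of the 11 genes, 7 had a ratio above 0 and 4 below, where 54.0% of all genes were above 0. Above 0.3 were Gata6 (0.46), a factor of resident peritoneal macrophages, Fcgr1 (0.43), Icam2 (0.40) and Mertk (0.37). Below 0 were Csf1r (-0.15), Cd68 (-0.06), Mrc1 (-0.02) and Itgam (-0.01). Other probe sets of Csf1r were at -0.32 and -0.18. Other probe sets of Gata6 were at 0.74 and 0.46, and the other Fcgr1 probe set was at -0.04. Which cells gave the Gata6 signal was not tested. Timd4, another marker of resident macrophages, was below background on both. Several receptors are also used by other cells, and in bulk RNA fewer cells of a type and less RNA per cell cannot be told apart. Tlr9 is strongly used by plasmacytoid dendritic cells and B cells. Of 6 plasmacytoid markers, 2 were above background on both arrays and 2 more on the HDAC9 siRNA array alone, and their summed signal was log2 8.63 with control siRNA and 9.60 with HDAC9 siRNA. Klk1 read 7.43 and 8.47 by 1460050_x_at, and its other probe sets were below the floor on both arrays. Cox6a2 read 7.05 and 6.96, and Spib 5.95 and 6.60. Siglech, the defining marker, read 2.03 and 6.83, the latter above the floor but under the stricter 99th percentile floor of 6.92. Ccr9 and Ly6d were below the floor on both arrays. Crossing the floor was not rare: of 12050 genes above it on at least 1 array, 10733 were above it on both. Of 7 B cell markers measured, Cd22 was above background on both arrays (10.87 and 11.10) and Pax5 on the HDAC9 siRNA array alone. The defining markers Cd79a, Cd79b and Ms4a1 were below it on both, and the summed signal was 11.0 and 11.2. Their part in the Tlr9 difference was not tested.

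Markers of other immune cells that could be in a peritoneal sample were mostly near or below background. Of 6 conventional dendritic cell markers measured, 1 was above it (Zbtb46, 0.26), with Flt3, Xcr1, Cd209a, Itgae and Ccr7 below. The summed signal was 7.92 and 8.59, but genes below the floor enter it. Among these, Itgae read 4.03 and 6.11, Ccr7 1.04 and 5.95, and Cd209a 5.15 and 5.01. Of 7 T cell markers, 1 was above it on the control array (Cd8a, a bound of -0.79), with Cd3d, Cd3e and Cd3g below, and the sum was 8.15 and 7.46. Of 6 neutrophil markers, 2 were above it (S100a8 at -0.22 and Csf3r at 0.45), with sums of 9.94 and 9.99, and 0 of 6 mast cell markers were (Cpa3, Mcpt4, Cma1, Tpsb2, Fcer1a and Kit). By contrast, all 12 mesothelial and stromal markers were above background on both arrays, and some were bright, such as Col1a2 at 13.94 and 14.37. Their summed signal was log2 15.6 with control siRNA and 16.0 with HDAC9 siRNA, a sum that bright genes such as Col1a2 weigh on most. The ratios went both ways, 7 above and 5 below 0, where 54.0% of all genes were above 0. Col1a1 was at 1.80, Col3a1 at 1.46, Lrrn4 at 0.56, Wt1 at 0.44 and Col1a2 at 0.43. Msln was at -1.11, Krt18 at -0.44, Krt19 at -0.18, Pdgfra at -0.10 and Upk1b at -0.02. Mesothelial and stromal cells also use some of these receptors, and the part of these marker differences in the receptor ratios was not tested.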

How the data were processed

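Gene expression was measured on 2 Affymetrix arrays, 1 per group, from biotin-labelled cRNA per the labels' protocols. The authors deposited 1 log2 signal per probe set and array; the submitters' processing notes name MAS5, which condenses the probes of a set, without a version, and no scaling target or detection call is given here. The deposited log2 values ran from 0 to 15.2. The linear mean without the highest and lowest 2% was 497 on both arrays, so the authors' scaling was kept.

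Gene names came from the platform's 2016 annotation through gene identifiers and a RefSeq table of GRCm38.p6: 34945 had 1 gene, 932 several and 9160 none, and only the first kind was used. No symbol changed. A gene's brightest probe set by mean signal stood for the gene. Signals were raised to the floor before ratios were taken, with Python 3.11.15, pandas 2.3.3 and statsmodels 0.14.6 (loess, span 0.3). Ratios and scatter were checked on simulated data in genes well above the floor. Bounds and genes near the floor were not checked in this way. Array number limits the precision, and no test was possible.

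The receptors, pathway lists and motifs were chosen with earlier results of these data known. The rule for named genes took all members, of each list up to 4 genes with the largest ratios, all genes of lists of 7 or fewer, and defining markers below the floor; not every such gene is printed. Tnfaip3, Socs1, Irf9, Adgre1, the NOD-like receptors and second probe sets were chosen after their values were seen. The alternatives tried were 3 scalings (median centring, quantile, loess), floors at the 75th or 99th percentile, a pseudocount of 1 in place of the floor, medians of probe sets per gene, omission of _s_at, _x_at and _a_at probe sets, and 1.5-fold or 3-fold thresholds.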

Additional observations from a re-analysis of the deposited data

How the results depend on the processing

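With 1 array per group, nothing here bears on differences between cultures, and signals near the floor limit Tlr5, Tlr9 and 1419848_x_at of Tlr7. The family median stayed between -0.031 and -0.0047 under each alternative. The number of receptors at least 2-fold higher went from 0 to 1 (Tlr9) with the floor at the 75th percentile, with no floor and at a threshold of 1.5-fold, and the number lower was 0 under each alternative. Of 80 alternative values for single receptors, 76 moved from the reported value by less than the 0.29 scatter. The other 4 were Tlr9 at 1.22 (75th percentile floor), 1.21 (no floor) and 0.18 (99th percentile floor), and Tlr5 at 0.14 (99th percentile floor). Of these 4 values, only those at the 99th percentile floor are bounds. The 75th percentile floor, 5.28, lay under both Tlr9 signals. Of 105 alternative list medians, 98 moved by less than the scatter divided by the square root of the number of genes. The others were proximal kinases and ubiquitin ligases (0.14, or -0.065 by the median over probe sets and -0.038 without _s_at, _x_at and _a_at probe sets), transcription factors (0.20, or 0.065 and 0.0072 under the same settings), interferon-stimulated genes (0.69, or 0.61 with the 99th percentile floor and 0.77 without those probe sets) and mesothelial and stromal markers (0.18, or 0.041 without those probe sets). For the lists, the cause was not tested. Counting only genes above background on both arrays was chosen after seeing the data; it left 9 receptors with a median of -0.013. No paired analysis was possible because there was 1 array per group.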

Other observations

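NOD-like receptors, cytosolic sensors of bacterial products and cell damage, were looked at after the receptor results had been seen. Of 17 genes 12 were measured and 8 were above background, with 6 ratios above 0, where 54.0% of all genes were. Among them 0 were past 2-fold, and the median was 0.21, against 0.03 over all genes. Nlrc5, which activates MHC class I genes and is interferon-inducible, read 8.51 with control siRNA and 9.40 with HDAC9 siRNA (0.90). Nod1, a sensor of bacterial peptidoglycan, read 9.76 and 10.34 (0.58), and Naip6 was at 0.33. Nlrp3, the sensor of a cytosolic inflammasome, and Nlrc3 were at 0.21, Nlrx1 at 0.11 and Naip2 at -0.14. Naip5, the cytosolic flagellin sensor, was level at 9.58 and 9.53, beside the surface flagellin receptor Tlr5 at 0.57. Nlrp6, Nlrp10, Nlrp12 and Ciita were below background on both arrays.

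Tlr12, a mouse receptor for a protozoan profilin that was not among the 10 genes, did not reach the floor, at 6.29 and 4.70 by its brighter probe set. Tlr11 was not analysed here.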
